A study of Homo sapiens with 3 samples.

Results

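The binding of the fusion protein HA-PRCC-TFE3 was examined at the loci of 7 genes of the AP-1 transcription factor family, namely JUN, JUNB, JUND, FOS, FOSL1, FOSL2 and ATF3. A locus was the gene at its hg19 coordinates with 10 kb on either side, and its members were the ChIP-seq peaks that overlapped this window by at least 1 bp. Overlapping peaks of both lists were joined into union regions, which were termed shared when both replicates contributed a peak. The loci held 54 peaks in replicate 1 and 45 in replicate 2, which formed 58 union regions of 117702 in the genome. Peaks were assigned to the loci by position and not by any measured value, and the genes were chosen with earlier results of these data known.

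The data came from HK-2, an established human cell line of renal proximal tubule origin, which expressed HA-tagged PRCC-TFE3 from a doxycycline-inducible construct. All 3 samples were taken from cells that had received 0.2 µg/ml doxycycline for 24 h. They were 2 precipitations through the HA tag, called replicate 1 and replicate 2, and 1 input DNA. Background was therefore given by input DNA alone, without uninduced cells. The study describes the ChIP samples as biological replicates, and the labels do not say whether they came from separate cultures. The fusion was an induced transgene product, so the peaks describe induced HA-PRCC-TFE3 and not TFE3 at its native level. Replicate 1 held 12235754 tags, replicate 2 held 7418533, and input DNA an estimated 21695262, where a tag is a sequenced read placed on the genome.

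AP-1 is a family of dimers of basic leucine zipper proteins. JUN, JUNB and JUND can pair with each other or with the FOS proteins, which do not form stable dimers among themselves, and ATF3 can pair with JUN proteins. The dimers recognise the TPA response element TGACTCA or the cyclic AMP response element TGACGTCA, and several of the genes, FOS and JUN foremost, are switched on within minutes of a growth or stress signal. TFE3 belongs to another class of factors, the basic helix-loop-helix leucine zipper proteins, and binds E-boxes such as CACGTG.

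The promoters of the genes with a shared region near the start are shown first, because these genes had peaks of both replicates within 1000 bp of the start. Promoter sequences of 6 of the 7 genes were matched by symbol in a RefSeq table of GRCh38.p14, all but FOSL1, and ATF3 had 2 entries. Each line gives the 250 bases before the RefSeq start, 5′ to 3′ on the strand of the gene, with GRCh38.p14 coordinates. Capitals mark TGACATCA in JUN, TGACGTCA in JUND and CACATG, the other strand of CATGTG, in FOSL2.
JUN, chr1:58784048-58784297, minus strand: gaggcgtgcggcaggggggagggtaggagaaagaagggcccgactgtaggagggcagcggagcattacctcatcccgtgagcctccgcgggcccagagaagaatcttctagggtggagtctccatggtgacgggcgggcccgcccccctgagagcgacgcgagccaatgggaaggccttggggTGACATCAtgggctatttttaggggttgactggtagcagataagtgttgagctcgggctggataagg
JUNB, chr19:12791236-12791485, plus strand: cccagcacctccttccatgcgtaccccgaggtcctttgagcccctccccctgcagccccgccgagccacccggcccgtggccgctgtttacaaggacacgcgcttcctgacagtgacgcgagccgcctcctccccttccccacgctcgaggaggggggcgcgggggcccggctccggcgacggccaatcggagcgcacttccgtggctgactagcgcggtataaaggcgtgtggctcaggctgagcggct
JUND, chr19:18281623-18281872, minus strand: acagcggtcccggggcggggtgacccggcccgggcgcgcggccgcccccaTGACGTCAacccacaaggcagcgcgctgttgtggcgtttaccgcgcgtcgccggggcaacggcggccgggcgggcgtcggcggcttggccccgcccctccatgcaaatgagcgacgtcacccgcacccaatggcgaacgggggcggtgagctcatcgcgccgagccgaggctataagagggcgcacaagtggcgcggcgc
FOS, chr14:75278578-75278827, plus strand: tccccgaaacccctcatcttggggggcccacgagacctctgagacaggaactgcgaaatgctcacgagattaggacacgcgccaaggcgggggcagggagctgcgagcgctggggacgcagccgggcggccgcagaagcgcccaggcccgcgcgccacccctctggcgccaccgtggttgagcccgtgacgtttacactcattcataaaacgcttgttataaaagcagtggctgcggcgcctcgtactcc
FOSL2, chr2:28392608-28392857, plus strand: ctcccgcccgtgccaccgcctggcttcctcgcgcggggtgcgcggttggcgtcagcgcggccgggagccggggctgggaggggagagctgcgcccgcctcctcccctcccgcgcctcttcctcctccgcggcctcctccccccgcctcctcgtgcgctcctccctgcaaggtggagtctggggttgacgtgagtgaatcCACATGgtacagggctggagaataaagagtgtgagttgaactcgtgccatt

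The motifs were searched on both strands over 300 bases, which added 50 bases after the start. CACGTG was found in 7.26% of 35116 RefSeq promoters and in 0 of the 7 member promoters, and TCACGTGA, which contains it, in 0.980% and in 0 member promoters. CATGTG was present in 11.1% of all promoters and, among the members, in FOSL2 alone, where it began 51 bases before the start. The looser E-box CANNTG, which includes CACGTG and CATGTG, was found in 68.7% of promoters and in 4 of the 7 member promoters, which belong to 6 genes. TGACGTCA was found in 1.85% of promoters and began 200 bases before the start of JUND. TGACTCA was found in 4.95% of promoters and, among the members, in FOSL2, after the start and therefore outside the printed bases. The variant TGACATCA, which was chosen after the data were seen, was found in 2.61% of promoters and began 67 bases before the start of JUN and 123 bases before the first start of ATF3. These matches describe letters only. The gene ends in RefSeq differed from those used for the peaks (JUN was 3257 bp long in RefSeq and 3323 bp here), so summits were not placed base by base on the printed promoters.

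All 7 loci held a shared region, beside 27.9% of the 151771 tiles of 20 kb in the genome, although the windows were longer than a tile, from 21.8 kb at JUNB to 75.4 kb at ATF3. Of the 58 regions 38 were shared (65.5%), against 59.8% of all union regions, so the share of the loci lay near that of the genome. A further 15 regions were present in replicate 1 only and 5 in replicate 2 only. In all, 28 regions overlapped a gene body and 30 lay in the flanks. There were 6 genes, namely JUN, JUNB, JUND, FOS, FOSL1 and FOSL2, that had a shared region with both summits within 1000 bp of the start. The share of all gene starts with such a region was not computed, because no annotation of hg19 was used. The count is therefore not read as particular to these genes. ATF3 had none at the start used here, which is the upstream end of the gene as given.

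**Figure D1:**
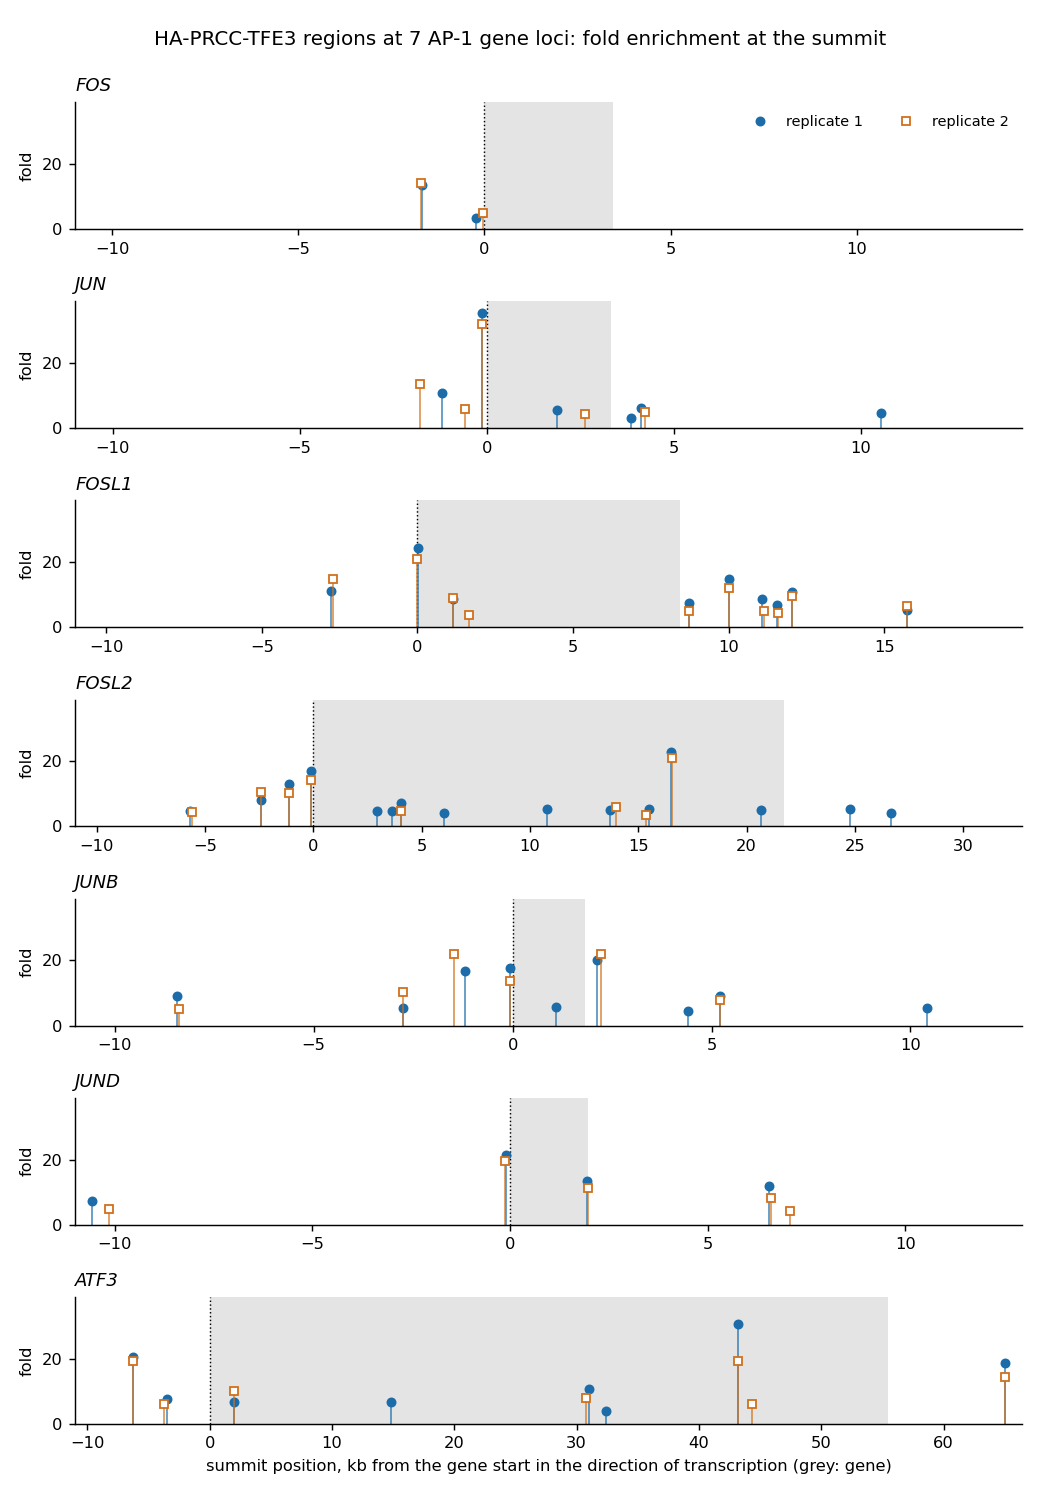
Fold enrichment at the summit (vertical axis, ratio over background) of each HA-PRCC-TFE3 region against the distance of the summit from the gene start in kb, for 7 loci; filled circles are replicate 1, open squares replicate 2, and grey marks the gene. The highest summits of JUN, FOSL1 and JUND stand at the start, whereas those of FOSL2 and ATF3 stand inside the gene, 16.5 kb and 43.2 kb from the start in replicate 1.

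The strength of a peak was read from its fold enrichment, the ratio of ChIP signal to background at the summit as deposited, and from its percentile, the share of the peaks of the same list with a lower fold. The median fold over all peaks was 7.49 in replicate 1 and 7.32 in replicate 2.

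JUN, the founding member of the JUN genes and the partner of FOS in the classical AP-1 dimer, had the region with the highest fold enrichment at the summit of the 7 loci. It lay at chr1:59249619-59250149 (hg19) and spanned the start of the gene. The fold enrichment was 35.3 in replicate 1 and 32.1 in replicate 2, above 99.7% and 99.6% of the peaks of each list. The summits lay 112 bp and 118 bp upstream of the start, 6 bp apart. At this region 71 ChIP tags were counted in replicate 1 and 55 in replicate 2, and 2 input tags in each case. After scaling to library size, ChIP over input was 62.9 fold (95% interval 16.8 to 530) in replicate 1 and 80.4 fold (21.2 to 681) in replicate 2. The intervals were wide because the input held so few tags. Peaks had been called against this same input, so ratios above 1 were given in advance and no test was made. On this scale of fold over input the value of JUN was not the highest. FOSL1 had 95.7 and 105 fold and FOSL2 86.9 and 102 fold at their strongest regions, each over 1 input tag, and ATF3 had no input tag. The intervals of FOSL1 (16.5 to 3851 in replicate 1) and FOSL2 (14.9 to 3501) overlapped that of JUN in both replicates. They therefore give no order of these loci. A second shared region upstream of JUN, 1015 bp wide, reached 10.7 fold in replicate 1 and 13.5 fold in replicate 2, but its highest summits were 588 bp apart. Only 3 of the 8 JUN regions were shared, the lowest number after FOS, and the last of them, past the gene end, reached 6.33 and 5.12 fold. JUN-DT, a long noncoding RNA gene, lies next to JUN in RefSeq, so the regions of this locus were not assigned to JUN alone.

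JUNB, which can oppose the activity of JUN at some promoters, had 9 regions, 6 of them shared, and no single one stood out. The region whose lower fold of both replicates was highest was chr19:12904111-12905043, just past the gene end, with 20.2 fold in replicate 1 and 22.0 fold in replicate 2. Its summits lay 0.31 kb and 0.403 kb beyond the end. A broad region upstream, chr19:12899900-12901374, had 16.8 and 22.1 fold and was the widest of all loci at 1475 bp. The region at the start, chr19:12902078-12902385, had 17.8 and 13.6 fold, with summits 65 bp and 74 bp upstream. Their order therefore differed between replicates, since the upstream region was the lowest of these in replicate 1 and the highest in replicate 2. JUNB lies beside other genes, with HOOK2 and RNASEH2A among its neighbours in RefSeq, so a peak of this locus is not assigned to JUNB.

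JUND, the JUN gene that is broadly expressed in resting cells, had 5 regions, 4 of them shared. The region at its start, chr19:18392180-18393139, had 21.5 fold in replicate 1 and 19.6 fold in replicate 2, with summits 89 bp and 128 bp upstream. At the gene end a second shared region had 13.3 and 11.1 fold, and no input tag was counted there beside 33 and 20 ChIP tags. Another, 1336 bp wide and 4.594 kb past the end in replicate 1, had 11.8 and 8.17 fold. The fourth was a weak region at the upstream border of the window, with 7.22 and 4.89 fold. Its replicate 1 peak lay wholly outside the window and was included only through its overlap with the replicate 2 peak.

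FOS, the immediate-early gene whose product pairs with JUN, differed from JUN in that its region at the start was weak. This region, chr14:75745158-75745691, had 3.42 fold in replicate 1 and 4.92 fold in replicate 2, above only 0.690% and 13.8% of the peaks of each list, and no peak of the BED lists was called there. The stronger of its 2 regions, chr14:75743597-75744153, lay 1682 bp and 1699 bp upstream and had 13.5 and 14.2 fold. Both replicates gave a clear count at this upstream region, 44 and 33 ChIP tags beside 2 input tags. No summit lay inside the gene or in the 10 kb past its end. FOS had the lowest number of regions of the 7 loci.

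FOSL1, which encodes FRA-1, had 10 regions, of which 9 were shared. The region at its start, chr11:65667758-65668337, had 24.4 fold in replicate 1 and 21.1 fold in replicate 2, with summits 3 bp inside and 6 bp upstream of the start. ChIP tags numbered 54 and 36 there, with 1 input tag. The start of FOSL1 was thus the strongest gene start of the FOS genes in both lists. Upstream, a region at 2.776 kb in replicate 1 had 11.01 and 14.8 fold. A group of 6 shared regions lay past the gene end, the nearest summit 0.302 kb and the farthest 7.283 kb beyond it in replicate 1. The strongest of this group had 15.0 and 12.2 fold, and the other 5 lay between 4.49 and 10.7 fold. CCDC85B and FIBP are among the genes next to FOSL1 in RefSeq, so these regions were not assigned to FOSL1.

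FOSL2, which encodes FRA-2, had 15 regions, the most of the 7 loci, of which 8 were shared and the other 7 were found in replicate 1 only. Its strongest region lay within the gene at chr2:28631696-28632735, with summits 16.532 kb and 16.579 kb from the start. The fold enrichment there was 22.7 in replicate 1 and 21.0 in replicate 2, with 49 and 35 ChIP tags and 1 input tag. The region at the start, chr2:28615173-28615905, was lower, with 17.03 and 14.3 fold and summits 123 bp and 124 bp upstream. No input tag was found at the start of FOSL2 beside 38 and 24 ChIP tags. At a floor of 3 input tags the ratio was 22.5 fold in replicate 1 and 23.4 fold in replicate 2. These values leave out the counting error of the ChIP tags. The lower limits of the exact intervals, which include it, were 17.4 fold in replicate 1 and 17.6 fold in replicate 2. A series of 3 further shared regions lay upstream. The nearest had 13.2 and 10.4 fold, the next 8.08 and 10.5 fold, and the farthest 4.79 and 4.49 fold. FOSL2-AS1, a long noncoding RNA gene, overlaps FOSL2 in RefSeq, so the regions of this locus were not assigned to FOSL2 alone.

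ATF3, a stress-induced member of the ATF family, is known to have a distal promoter and another within the gene. Of its 9 regions 6 were shared. Its strongest region was in the gene body at chr1:212781382-212782264, with summits 43.177 kb and 43.203 kb from the start. The fold enrichment was 30.6 in replicate 1 and 19.4 in replicate 2, the second highest of the loci in replicate 1. ChIP tags numbered 61 and 33, and no input tag was found. At the floor of 3 input tags the ratio was 36.1 fold in replicate 1 and 32.2 fold in replicate 2. The lower limits of the exact intervals, which include the counting error of the ChIP tags, were 28.4 and 24.7 fold. The summits of both libraries lay 26 bp apart, although the fold was higher in replicate 1. A region 6.254 kb upstream of the start in replicate 1 had 20.6 and 19.3 fold and was nearly equal in both replicates. Another, 9.534 kb past the gene end, had 18.6 and 14.4 fold. The shared region nearest to the start lay 1950 bp and 1980 bp inside the gene and was weaker, with 6.70 and 10.02 fold. Distances were taken from the upstream end of the gene, and whether any region lies at the promoter within the gene was not tested.

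**Figure D2:**
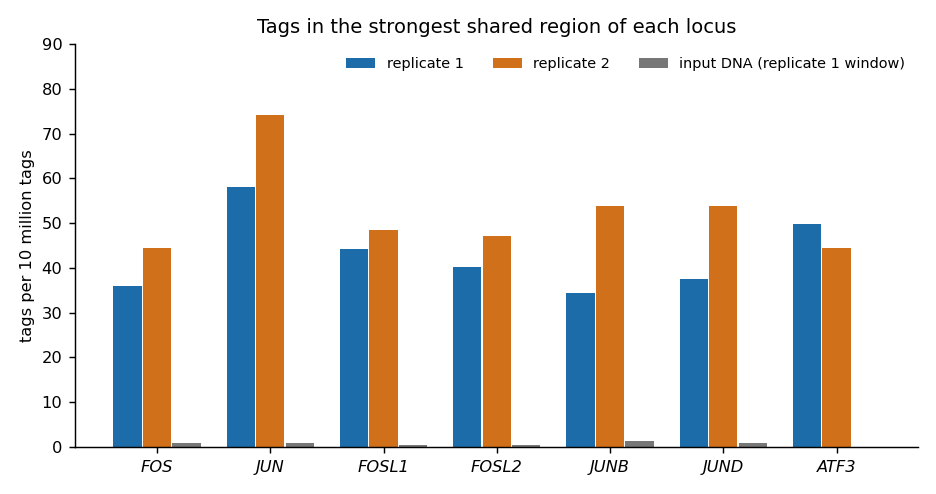
Tags per 10000000 tags of the library (vertical axis) in the strongest shared region of each of the 7 loci, with bars for replicate 1, replicate 2 and input DNA in the replicate 1 window. JUN is highest in both replicates at 58.0 and 74.1, the other 6 loci lie between 34.3 and 53.9, and input DNA is near 0 at every locus.

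The replicates were then compared in tag counts, which unlike the fold do not depend on how the background was estimated. Matched peaks were BED peaks that overlapped 1 to 1 between the replicates. At the loci these were 20, of 29 BED peaks in replicate 1 and 27 in replicate 2. Peaks called in 1 list only were left out, so differences of that kind could not enter the test. At the 20 matched peaks of the loci, replicate 1 held 737 tags and replicate 2 held 533. Replicate 2 thus supplied 42.0% of the tags (95% Wilson interval 39.3 to 44.7), beside 39.8% over all 55655 matched peaks, a value inside the interval. For single peaks this share ran from 35.1% at the ATF3 region in the gene body to 53.3% at the ATF3 region nearest to the start. No matched peak of the loci departed from the genome-wide split in an exact two-sided binomial test with Benjamini-Hochberg adjustment over all matched peaks (0 called, 0 with an unadjusted p below 0.05, lowest p = 0.114). In the genome 0% were called and 2.2% had an unadjusted p below 0.05. With tags this few, moderate differences between the replicates were not detectable at single peaks. The intervals given here cover counting error only, and the floors cover that of the input alone.

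**Figure D3:**
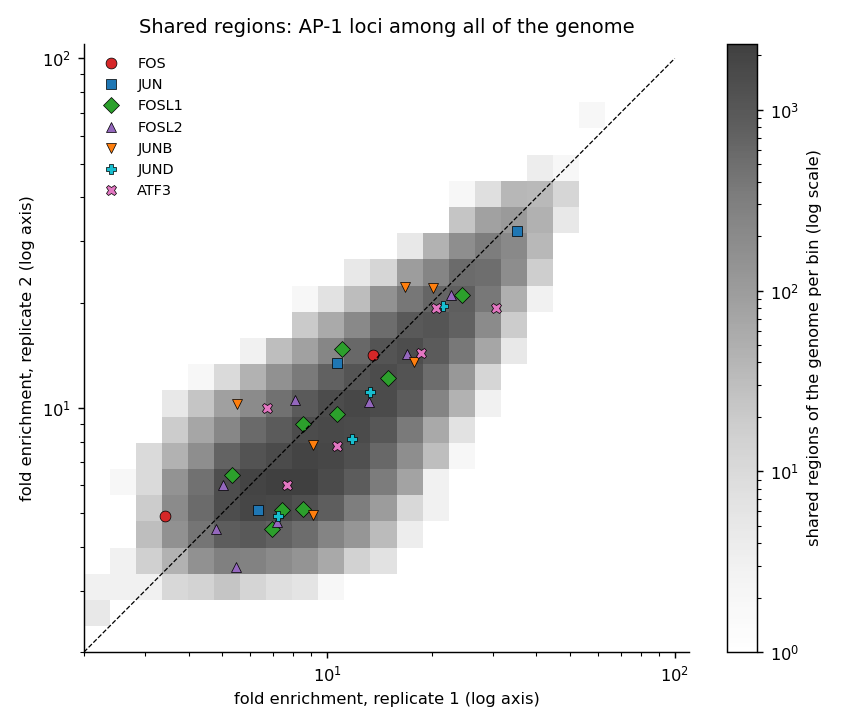
Fold enrichment in replicate 1 (horizontal log axis) against replicate 2 (vertical log axis) of the 38 shared regions at the loci, with a symbol for each gene, over grey bins that count the shared regions of the genome; the dashed line marks equal folds. Of the 38 regions 26 were higher in replicate 1, and the JUN start region lies farthest up the diagonal among the loci. The median fold of the shared regions of the genome was also higher in replicate 1 (10.1 beside 7.99), and the genome share of regions higher in replicate 1 was not computed.

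Over all 38 shared regions the median fold was 10.7 in replicate 1 and 10.1 in replicate 2, beside 10.1 and 7.99 for the shared regions of the genome. The summits of both replicates lay a median of 28 bp apart (31 bp in the genome), and 28 of the 38 pairs lay within 100 bp. The shared regions of the loci were wider, with a median of 521.5 bp beside 370 bp. Of the 38, 7 ranked in the highest decile of fold in both lists (18.4%), against 9.61% of all shared regions. They were the start regions of JUN, FOSL1 and JUND, the region within FOSL2, the region past the end of JUNB, and the ATF3 regions upstream and in the gene body. FOS had none. For 3 loci, JUN, FOSL1 and JUND, the strongest shared region was that at the start.

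The 20 regions found in 1 replicate were weak. Their fold enrichment ran from 3.04 to 6.84, below the median fold of all peaks in either list. Only 4 of them held a peak of the BED lists, whereas 24 of the 38 shared regions held a BED peak in both replicates. The folds and shares of the same kinds of region over the genome were not computed, so these values are not read as particular to the loci. The BED lists are a second set of peaks from the same libraries, and 60.4% of their union regions in the genome were shared. Replicate 1, with the more tags, gave 15 of the 20. The part of depth in this was not tested.

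**Figure D4:**
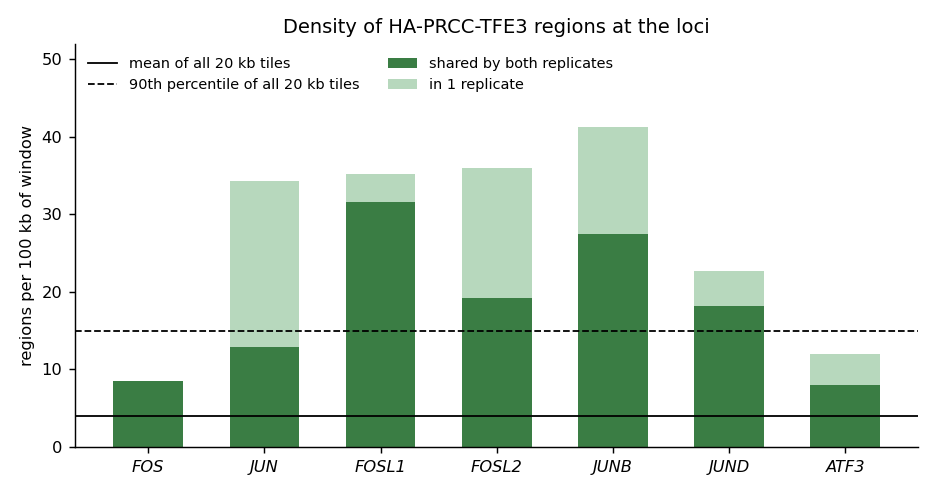
Union regions per 100 kb of window (vertical axis) at the 7 loci, split into regions shared by both replicates (dark) and found in 1 replicate (light), with the mean (solid line, 3.94) and the 90th percentile (dashed line, 15) of all 20 kb tiles. JUNB is highest at 41.3, and FOS at 8.53 and ATF3 at 11.9 lie below the dashed line.

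The density of regions varied among the loci. JUNB had 41.3 regions per 100 kb, FOSL2 35.9, FOSL1 35.2, JUN 34.3 and JUND 22.8. ATF3 had 11.9 and FOS 8.53. Single libraries decided part of this order. Without replicate 1, FOSL2 fell to 19.2 and JUN to 21.4, and without replicate 2, JUND fell to 13.7. These values count the peaks of the remaining list, not union regions, so JUNB rose to 45.8 without replicate 2 and JUND to 27.3 without replicate 1. In the BED lists JUNB had 36.7, FOSL1 21.1, JUND 18.2, JUN 12.9, FOSL2 11.98, ATF3 11.9 and FOS 4.26. Against the tiles of the genome, with a mean of 3.94 per 100 kb, JUNB lay above 99.8% of tiles and FOS above 80.6%. In shared regions alone the order changed, with FOSL1 first at 31.6 per 100 kb and JUNB next at 27.5, whereas JUN came to 12.9 because most of its regions were found in 1 replicate. The tiles include stretches without genes and without assembled sequence, which lowers their mean. Since the windows were centred on genes, no test was made of this difference.

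Input DNA showed little signal at these loci, where its tags were counted only at peaks that had been called against it. None of the 286 peaks called in input DNA lay in a window. At the 29 BED peaks of replicate 1 the input held 36 tags beside 915 ChIP tags, a mean of 1.24 input tags per peak (95% exact Poisson interval 0.869 to 1.72), and the mean over all peaks of the list was 0.874. At the 27 BED peaks of replicate 2 the input held 32 tags beside 649 ChIP tags, a mean of 1.19 (0.811 to 1.67) beside 0.876. The genome-wide mean thus lay inside both intervals, near the lower bound in replicate 1. Both counts come from the same input library at largely overlapping windows, so they do not replicate each other. The most input tags at any BED peak of the loci were 4, and ChIP tags had a median of 29 in replicate 1 and 21 in replicate 2.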

How the data were processed

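Chromatin of doxycycline-treated HK-2 cells was cross-linked, cut with micrococcal nuclease and pulled down with anti-HA beads, and 2 ChIP samples and 1 input DNA were sequenced. The genome build, hg19, is given in the submitters' processing notes, and the study's methods name MACS, run in Strand NGS against input DNA. The aligner is not given in the sources used here. The authors called peaks for each sample separately.

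The deposited narrowPeak lists of MACS gave each peak a fold enrichment ratio, −log10 p and −log10 q values and a score. The lowest −log10 q was 1.31 in replicate 1 and 1.35 in replicate 2. The study's methods describe a stringent p-value threshold, and whether these lists were cut at that threshold was not tested. The deposited BED lists, whose columns were read by position because the header was displaced, gave a tag count, a score, a signal scaled to tags per 10000000 (input tags scaled to the ChIP library), fold ratios, p-values and a focus fraction. The deposited fraction and p-values were not used. Library totals were recovered as tag counts divided by signal, and input tags from each peak's tag count divided by its input fold. The lists held a constant of 0.5 tags where no input tag was counted, which was read as 0 (46.1% of peaks in replicate 1 and 46.9% in replicate 2). All values came out as this constant or as whole tags, within 0.1 of 1 tag.

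Peaks of both replicates were merged where they overlapped by 1 bp. Tag splits were tested per matched BED peak with an exact two-sided binomial test, adjusted by the Benjamini-Hochberg method over all matched peaks of the genome. Shares carry 95% Wilson intervals and tag ratios and means exact Poisson-based intervals, and the floor for 0 input tags was 3 tags. The named regions were the strongest shared region of each locus (highest lower fold of both replicates), the shared region nearest the start and the others described by position. The test was checked on simulated data. The members and lists were chosen with earlier results of these data known. Other AP-1 genes were not analysed here, because no annotation of hg19 was used, and no coordinate was converted between builds. Python 3.11.15, pandas 2.3.3, numpy 2.4.6 and scipy 1.17.1 were used. Alternatives covered the window size, the peak list, a q value below 1e-05, the overlap rule, leaving out a replicate and the reference split.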

Additional observations from a re-analysis of the deposited data

How the results depend on the processing

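All 7 loci kept a shared region under every alternative that was run. Of 85 alternative values 53 stayed within the margin set for them and 32 moved. The number of union regions was 58, and it was 28 within the genes, 88 with 20 kb, 138 with 50 kb and 36 in the BED lists. Shared regions numbered 38, and they numbered 16, 59, 95 and 20 under these settings. The median density of 34.3 regions per 100 kb became 46.0 within the genes, 44.1 with 5 kb, 23.1 with 20 kb, 16.7 with 50 kb, 12.9 in the BED lists and 21.4 at q below 1e-05. Without a replicate it ranged from 21.4 (without replicate 1) to 30.0, and the number of peaks was 45 to 54. Here the peaks of the remaining list were counted and not union regions. The median fold of the strongest regions, 21.9, was 71.7 as BED fold over input and 44.3 as BED tags per 10000000, which are other scales, and 21.0 to 22.7 without a replicate. TGACTCA was found in 0 member promoters when only the bases before the start were read. The number of loci with a shared region at the start was 6, and it was 7 within 2000 bp (ATF3 was added) and 5 in the BED lists and at q below 1e-05 (FOS was lost). No paired analysis was possible because only the ChIP labels, and not that of input DNA, carry a number. The spread between replicates rests on 2 ChIP libraries of unequal depth, and input DNA had no replicate.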

Other observations

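Strong regions were also found farther from the AP-1 genes, between 10 kb and 50 kb of the gene ends. Of 57 shared regions there, 10 ranked in the highest decile of fold in both lists (17.5%, beside 9.61% of all shared regions), at least 1 at each of the 7 loci and 3 at JUND. For FOS, the best of 9 shared regions in this range lay 19.61 kb upstream of the start at chr14:75725561-75726140 (hg19), with 22.5 fold in replicate 1 and 24.4 fold in replicate 2. This was stronger in both replicates than either region within 10 kb of FOS, which had at most 13.5 and 14.2 fold. For ATF3, the best region lay 71.478 kb downstream of the start at chr1:212809945-212810386, with 34.6 and 27.1 fold, beside 30.6 and 19.4 fold for the strongest region in the gene. The best distal region of JUN, 28.39 kb downstream of its start, had 30.0 and 21.2 fold and so was lower than the region at the start. Which gene any of these regions acts on was not tested.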
